A study of Homo sapiens with 6 samples.

Results

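Aminoacyl-tRNA synthetases, the enzymes that join each amino acid to its transfer RNA, were followed in Jurkat cells, a human leukaemia line of T cell origin (acute lymphoblastic). This family was chosen with earlier results of these data known. Its genes were then taken by symbol alone: the cytosolic and mitochondrial synthetases and 3 scaffold proteins of the multi-synthetase complex, 40 genes in all. A named probe set was at hand for 32 of them, out of 17687 named genes. These are 16 of 20 cytosolic synthetases, 15 of 17 mitochondrial ones and 1 of 3 scaffold proteins, each with a single probe set. The other 8 were not analysed here.

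The series holds 6 Affymetrix whole-transcript arrays, 3 per group, all of unmodified Jurkat cells grown in RPMI with serum. Cells labelled control stayed in suspension for 3 h. The 3D cells were mixed into bovine type I collagen at 1.7 mg/mL, which set for 1 h and was then covered with warm medium for 2 h. The labels call the samples biological replicates and number them 1 to 3 in each group, without saying what separated them, so the p-values measure the spread between these samples, which may be technical. Both groups are a single leukaemia line at a single time.

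Every value below is the deposited log2 expression of a probe set. The median of an array ran from 5.55 to 5.64, and the number of arrays limits the precision. The 13 T cell markers had mean levels from 6.45 to 11.74, with a median difference of -0.21 and 1 of them at an unadjusted p under 0.05 (limma, lower in 3D). Markers of other cells had ranges of 3.14 to 8.28 (5 B cell), 2.71 to 5.70 (9 myeloid), 2.59 to 7.01 (7 stromal), 2.60 to 7.31 (8 endothelial or epithelial) and 3.80 to 6.45 (4 erythroid), with 1 stromal and 1 erythroid marker lower at that level. Over all genes 3.97% were lower at that level. The part of other cell types in any difference was not tested. A bulk array cannot tell fewer cells with a transcript from less transcript per cell.

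Most synthetases work in only 1 compartment. Cytosolic enzymes charge the transfer RNAs read by cytosolic ribosomes, and a second set, encoded in the nucleus, serves the mitochondrial ribosome. Several cytosolic enzymes sit together with scaffold proteins in the multi-synthetase complex. When amino acids run short, uncharged transfer RNA activates the kinase GCN2, and the transcription factor ATF4 then induces many cytosolic synthetase genes along with amino acid synthesis enzymes and transporters.

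No synthetase gene passed the test between 3D and suspension. Of the 32 genes, limma called 0 at a Benjamini-Hochberg adjusted p under 0.05, where it also called 0% of all 17687 genes. The smallest adjusted p among the 32 was 0.392, for RARS2. At an unadjusted p under 0.05 there was 1 gene higher in 3D, RARS2, and 1 lower, AARS2, while 9.87% of all genes reached that level (5.9% higher and 3.97% lower). The groups did not overlap for 2 higher genes, RARS2 and NARS2, and for 1 lower gene, AARS2, against 16.3% of all genes (8.28% higher and 8.03% lower).

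The 32 differences were small and went both ways, with 18 genes higher in 3D and 14 lower, where 47.4% of all genes were higher. Their median, taken as 3D minus suspension on the log2 scale, was 0.05 beside -0.02 for all genes, and it turned to -0.0045 once each array's trend on gene span and local gene number was removed. The typical size of a difference was 0.22 for the synthetases and 0.17 for all genes, and their values ran from -0.48 for AARS2 to 0.54 for AIMP1. The 95% interval of a gene reached a median of 0.43 to either side, so smaller differences could not be told from none. In all 3 pairs of equal replicate number 11 of the 32 genes were higher in 3D (34.4%, against 20.3% of all genes) and 4 were lower (12.5% against 19.8%). All genes are not a set matched for level: the median mean level was 8.90 for the synthetases and 5.78 for all genes. Dim genes show compressed differences, and the part of level in these comparisons was not tested.

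**Figure D1:**
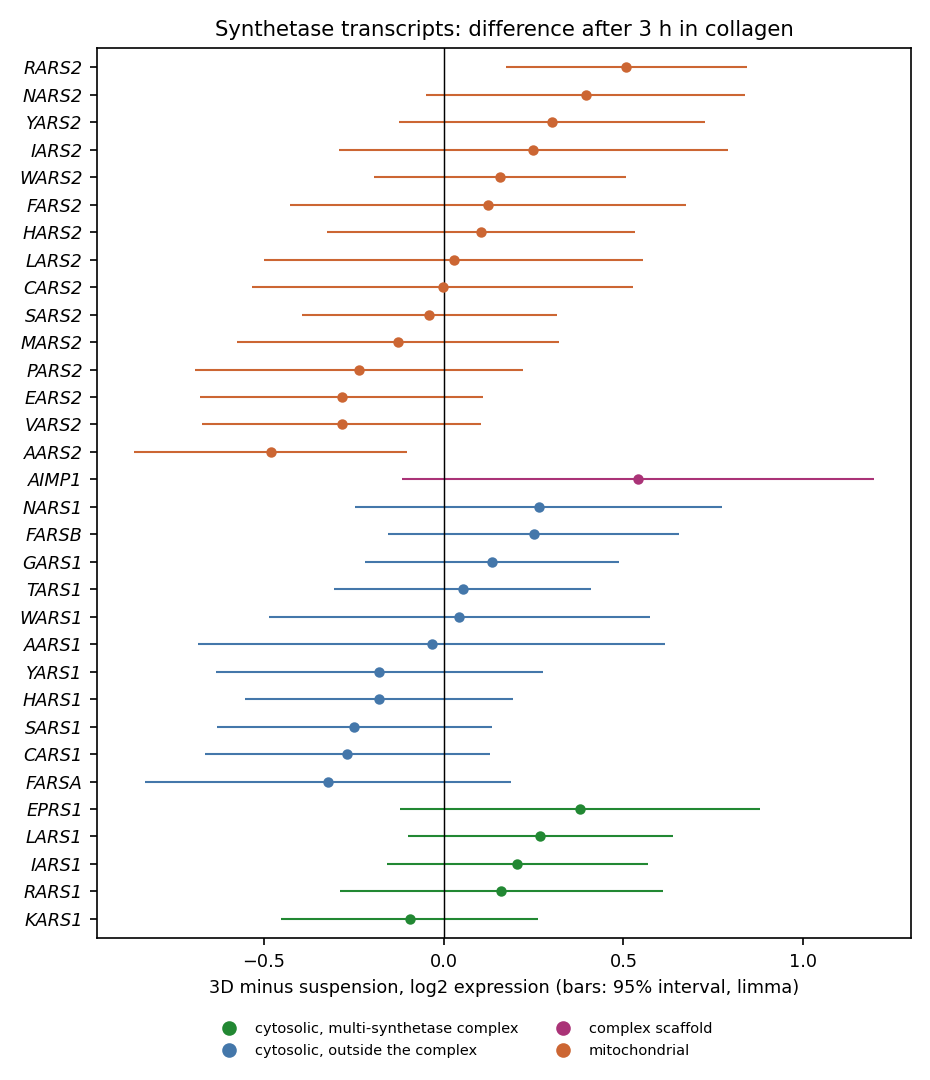
Difference between 3D and suspension on the log2 scale (x axis) for each of the 32 synthetase and scaffold genes (y axis), coloured by role; points are means of 3 arrays against 3 and bars are 95% intervals from limma before any adjustment. Only the intervals of RARS2 (0.17 to 0.84) and AARS2 (-0.86 to -0.10) leave out 0, and neither gene passed after adjustment over all genes.

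Mitochondrial synthetases held the largest differences in both directions among the enzymes. Of the 15 measured, 8 were higher and 7 lower in 3D, with a median of 0.03 that turned to -0.0050 with the trend on span and local gene number removed. RARS2, the mitochondrial arginyl-tRNA synthetase, measured 8.20, 8.09 and 8.26 in suspension, replicates 1 to 3 in order, and 8.66, 8.64 and 8.78 in 3D; values below keep this order. Every 3D array lay above every suspension array. The means were 8.18 ± 0.09 (SD, n = 3) and 8.69 ± 0.08 (SD, n = 3), a difference of 0.51 ± 0.15 (SE), or 1.42-fold, that did not pass (limma, adjusted p = 0.392). In pairs 1, 2 and 3 it was 0.46, 0.55 and 0.51, and it stayed between 0.46 and 0.55 with any array or pair left out, the narrowest such range of the 32.

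RARS2 starts head to head with ORC3, which encodes a subunit of the origin recognition complex, and the stretch between their starts is shown because both genes measured higher in 3D. In the RefSeq promoter table (GRCh38.p14) the starts are 148 bases apart. The 147 bases lying between them, chr6:87589988-87590134, read 5′ to 3′ in the direction of RARS2 (minus strand), are given with capitals on the letters ATTGG, the reverse complement of CCAAT.
RARS2 to ORC3: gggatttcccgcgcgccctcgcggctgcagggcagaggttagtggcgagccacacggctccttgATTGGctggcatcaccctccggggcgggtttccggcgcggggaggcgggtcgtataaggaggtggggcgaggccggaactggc
CCAAT or ATTGG occurs 1 time in this stretch, and 34.6% of all 300-base promoters in the table hold either. ORC3, named after its values were seen, measured 8.05, 8.40 and 8.30 in suspension and 8.72, 8.63 and 9.07 in 3D, again with no overlap. Its difference was 0.56 ± 0.18 (SE), with a limma adjusted p of 0.399. Whether probes of either set lie in sequence shared with the other gene was not tested.

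AARS2, the mitochondrial alanyl-tRNA synthetase, had the most negative difference of the family. Its suspension values were 5.85, 5.87 and 6.03, and its 3D values were 5.66, 5.46 and 5.18. The groups did not overlap, and the spread was wider in 3D, where replicate 3 lay lowest. The difference was -0.48 ± 0.17 (SE), or 1.40-fold lower, with a limma adjusted p of 0.425. Its mean over the 6 arrays lay under 6, the limit of the filter on dim probe sets, as did that of EARS2; the other 30 genes lay above it.

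NARS2, the mitochondrial asparaginyl-tRNA synthetase, measured 5.95, 6.65 and 6.61 in suspension and 6.86, 6.79 and 6.74 in 3D. The groups did not overlap, but suspension replicate 1 lay well under the other two. The difference of 0.40 ± 0.20 (SE) was 0.17 without that array (limma, adjusted p = 0.539 and 0.787). With any single array left out it ran from 0.17 to 0.52. The remaining mitochondrial genes overlapped between groups. VARS2, for valine, measured 6.62, 6.11 and 6.40 in suspension and 6.16, 6.15 and 5.97 in 3D. EARS2, for glutamate, had 5.59, 5.63 and 5.33 against 4.96, 5.29 and 5.44, and YARS2, for tyrosine, had 7.44, 6.89 and 7.43 against 7.74, 7.52 and 7.40. The differences were -0.28 ± 0.18 (SE) for VARS2, -0.28 ± 0.18 for EARS2 and 0.30 ± 0.19 for YARS2. IARS2 (0.25), PARS2 (-0.23), WARS2 (0.16), MARS2 (-0.13), FARS2 (0.12), HARS2 (0.10), SARS2 (-0.04), LARS2 (0.03) and CARS2 (-0.0029) had adjusted p-values of 0.715 to 0.998 (limma).

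**Figure D2:**
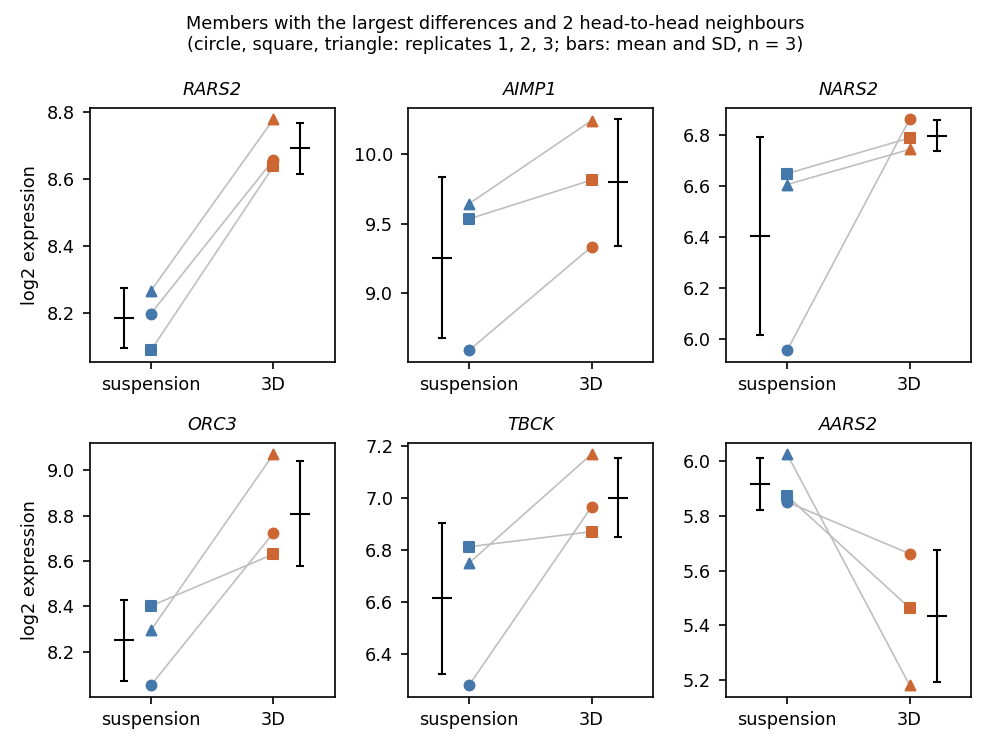
Log2 expression (y axis, scaled to each gene) of RARS2, AIMP1, NARS2 and AARS2 and of ORC3 and TBCK, the head-to-head neighbours of RARS2 and AIMP1, in suspension and 3D arrays (x axis); symbols mark replicate numbers, grey lines join equal numbers, and bars give the mean and SD of 3 arrays. The 3D arrays of RARS2 (8.64 to 8.78) all lie above its suspension arrays (8.09 to 8.26), while those of AIMP1 overlap because replicate 1 is low in both groups.

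Most measured genes of the multi-synthetase complex were higher in 3D, and 0 of them passed. AIMP1, the scaffold protein also known as p43, measured 8.59, 9.53 and 9.64 in suspension and 9.33, 9.81 and 10.24 in 3D. Replicate 1 was the lowest array of each group, so the groups overlapped although each 3D array exceeded its suspension partner. The difference of 0.54 ± 0.30 (SE) did not pass (limma, adjusted p = 0.563) and was 0.21 without suspension replicate 1. With any single array left out it ran from 0.21 to 0.77. The differences per pair were 0.75, 0.28 and 0.60.

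Of the 5 measured enzymes of the complex, 4 were higher in all 3 pairs and 1, KARS1, was not. Their median difference was 0.21, and it was 0.15 after quantile normalization once more and with the trend on span and local gene number removed. EPRS1, which charges both glutamate and proline from a single protein, measured 8.32, 8.84 and 8.96 in suspension and 8.85, 8.90 and 9.50 in 3D. LARS1, the leucyl enzyme that also senses leucine for mTORC1, had 9.30, 9.31 and 9.60 against 9.83, 9.52 and 9.68. Both genes overlapped between groups, at 0.38 ± 0.23 (SE) and 0.27 ± 0.17 (SE), with limma adjusted p-values of 0.592 and 0.604. EPRS1 stood at 0.19 without suspension replicate 1 and at 0.17 without 3D replicate 3, in a range of 0.17 to 0.51 with any single array left out. IARS1 (0.21), RARS1 (0.16) and KARS1 (-0.09), whose product serves both the cytosol and mitochondria, had adjusted p-values of 0.685, 0.809 and 0.868 (limma).

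Cytosolic synthetases outside the complex divided into 5 higher and 6 lower in 3D, with a median difference of -0.03. CARS1, the cysteinyl enzyme, measured 8.79, 9.02 and 9.28 in suspension and 8.59, 8.92 and 8.78 in 3D. SARS1, the seryl enzyme, had 8.91, 9.19 and 9.18 against 8.60, 8.94 and 9.0. Both were lower in each of the 3 pairs, yet the groups overlapped. The differences were -0.27 ± 0.18 (SE) and -0.25 ± 0.17 (SE), with limma adjusted p-values of 0.626 and 0.635. NARS1, for asparagine, measured 8.43, 9.32 and 9.05 in suspension and 9.07, 9.05 and 9.46 in 3D. These groups overlapped, with suspension replicate 1 lowest. The difference stood at 0.26 ± 0.23 (SE), and at 0.01 without suspension replicate 1. With any single array left out it ran from 0.01 to 0.46. HARS1 (-0.18), YARS1 (-0.18), GARS1 (0.13), TARS1 (0.05), WARS1 (0.04) and AARS1 (-0.03) had adjusted p-values of 0.731 to 0.981 (limma).

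The subunit genes of cytosolic phenylalanyl-tRNA synthetase, an enzyme built from an alpha chain (FARSA) and a beta chain (FARSB), differed in opposite directions. FARSA measured 10.34, 10.06 and 9.88 in suspension and 10.24, 9.75 and 9.34 in 3D. FARSB measured 10.07, 9.60 and 9.86 in suspension and 10.33, 9.95 and 9.99 in 3D. FARSA was lower and FARSB higher in each pair, while each gene's groups overlapped (-0.32 ± 0.23 and 0.25 ± 0.18, SE; limma adjusted p = 0.649 and 0.656). Both were smaller in size with the trend on span and local gene number removed, at -0.20 for FARSA and 0.18 for FARSB. The FARSB minus FARSA value within an array, which cancels what both probe sets share, was -0.27, -0.47 and -0.02 in suspension and 0.10, 0.20 and 0.66 in 3D. These values did not overlap, and the difference was 0.57. Permuting the 6 arrays exactly, two-sided, gave p = 0.1, the lowest possible with 3 against 3, and 0.825 after Benjamini-Hochberg adjustment over the 11 within-array values computed. The test could not pass at this number of arrays, and the value does not show that either transcript changed. It was chosen after the values were seen.

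**Figure D3:**
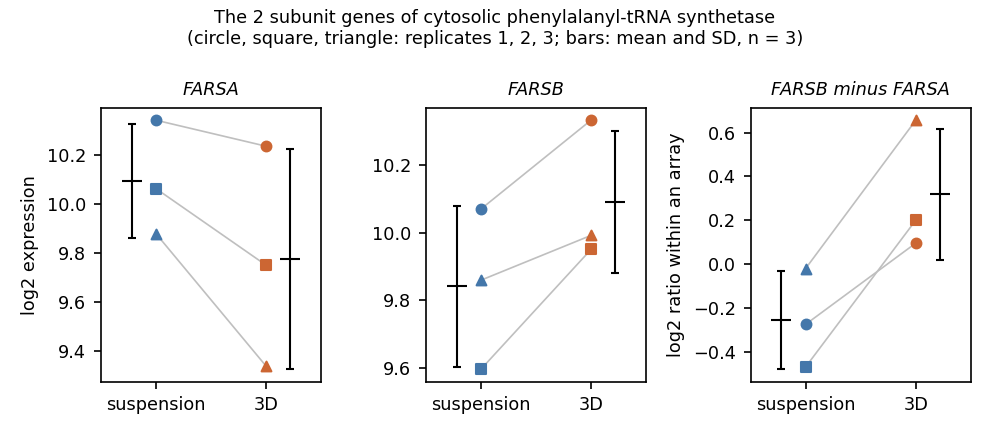
Log2 expression (y axis) of FARSA and FARSB, and FARSB minus FARSA within each array (right panel, log2 ratio), in suspension and 3D arrays (x axis); symbols mark replicate numbers, grey lines join equal numbers and bars give mean and SD of 3 arrays. The within-array value lies between -0.47 and -0.02 in suspension and between 0.10 and 0.66 in 3D.

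The other 10 within-array values set a mitochondrial enzyme against the cytosolic enzyme for the same amino acid. RARS2 minus RARS1 differed by 0.35 between the groups, with 0.38, 0.32 and 0.34 in the pairs. For YARS2 minus YARS1 the difference was 0.48, and for AARS2 minus AARS1 it was -0.45. The YARS2 value was positive in each pair (0.68, 0.45 and 0.31), as was that of HARS2 minus HARS1 (0.31, 0.15 and 0.39), which differed by 0.28. All 10 overlapped between groups, with exact permutation p-values of 0.2 to 1, in a design whose lowest possible p is 0.1. The test could therefore not pass, and says nothing on whether counterparts respond alike.

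With the replicate number as a block, which compares equal numbers within each pair, limma again called 0 of the 32 genes, where it called 0.0905% of all genes. Limiting that fit to the 8342 genes with a mean at or above 6 left 30 of the 32, and 2 were then called, both higher in 3D. They were AIMP1 (0.54 ± 0.14 SE, limma adjusted p = 0.0121) and RARS2 (0.51 ± 0.14 SE, adjusted p = 0.0140). In that fit 14.4% of the genes were called (10.6% higher and 3.78% lower), so 2 of 30 is no larger a share than the background. Both calls were lost without any filter (adjusted p = 0.125 and 0.123), without the block (0.464 and 0.313), without pair 1 (0.121 and 0.0559) and without pair 3 (0.0945 and 0.0996). Without pair 2 there were 6 calls, EPRS1, NARS1 and NARS2 higher and VARS2 lower beside the same 2, where 17.5% of all genes in that fit were called.

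Of the synthetases usually listed as ATF4 targets, 0 passed the test. Out of 13 such genes 11 were measured, 7 higher and 4 lower in 3D, with a median difference of 0.05 that became -0.0039 with the trend on span and local gene number removed. ATF4 acts through a C/EBP-ATF composite element whose core was searched for as TGATGCAA on both strands. RefSeq promoters, 250 bases before to 50 after a start, were at hand for 28 of the 32 genes, with 39 starts. AARS2, LARS1, VARS2 and YARS1 had no entry. The core occurred at 5 of these 39 starts (12.8%) and at 0.866% of all 35116 starts in the table. All 5 genes are on the ATF4 list, and their sites are shown as 30 bases each, 5′ to 3′ in the direction of the gene, with capitals on the core or its reverse complement TTGCATCA.
AARS1, chr16:70289675-70289704, minus strand: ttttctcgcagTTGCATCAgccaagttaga
CARS1, chr11:3057407-3057436, minus strand: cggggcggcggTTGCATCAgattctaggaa
IARS1, chr9:92293692-92293721, minus strand: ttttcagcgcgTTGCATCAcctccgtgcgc
NARS1, chr18:57621804-57621833, minus strand: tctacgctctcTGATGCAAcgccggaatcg
TARS1, chr5:33440956-33440985, plus strand: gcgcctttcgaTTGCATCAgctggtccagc
The core lay within 14 bases of the start in CARS1, IARS1, NARS1 and TARS1, and 187 bases before it in AARS1. The looser form TGATGNAA, which includes the first, added GARS1 and YARS2, or 7 of 39 starts (17.9%) against 3.62% of all starts. In 3D these 5 genes differed by -0.03 (AARS1), -0.27 (CARS1), 0.21 (IARS1), 0.26 (NARS1) and 0.05 (TARS1), and 0 of them passed. A match is a description of the letters and does not show that ATF4 bound there.

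Other ATF4 targets gave no call either. Of 27 measured genes on that list, 8 were higher and 19 lower in 3D, with a median of -0.07, and 0 were called by limma at an adjusted p under 0.05. At an unadjusted p under 0.05, a level that 9.87% of all genes reached, there was 1 gene. This was SLC7A11, the cystine transporter subunit, which was higher (0.49 ± 0.17 SE, limma adjusted p = 0.411). It measured 8.27, 8.0 and 8.11 in suspension and 8.72, 8.39 and 8.73 in 3D, with no overlap. ATF4 itself stood at 10.59, 10.38 and 10.58 in suspension and 10.34, 10.56 and 10.44 in 3D, a difference of -0.07 ± 0.16 (SE). ASNS, the asparagine synthetase gene and a standard readout of ATF4, differed by 0.08 ± 0.34 (SE). Both overlapped between groups (limma, adjusted p = 0.898 and 0.953).

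For most synthetases, as for most genes, the means of equal replicate numbers ranged more widely than 3D and suspension differed. This held in 24 of the 32 genes (75%) and in 72.6% of all genes. Such a range is taken over more means, each of fewer arrays, than the difference, so it tends to be larger. The count therefore shows no replicate effect particular to this family. AARS1 measured 9.29 and 9.08 in replicate 1 of suspension and 3D, and 9.99 to 10.11 in the other 4 arrays. ASNS was likewise low in both arrays numbered 1, at 7.75 and 7.97, against 8.89 to 8.96 elsewhere. Replicate 1 was the lowest array of both groups for 6 of the 11 measured ATF4-listed synthetases and for 0 of 15 mitochondrial ones, compared with 18.4% of all genes. It was the highest of both groups for 1 of those 11 and for 8 of the 15, compared with 21.0% of all genes. Among the 27 other ATF4 targets it was lowest for 6 and highest for 7. A high replicate 1 was not particular to the mitochondrial synthetases. It was highest for 14 of 28 genes of transfer RNA end processing, splicing and export, and for 10 of 22 of transfer RNA transcription. Replicate 1 was also highest for 6 of 13 genes of other charging routes, 5 of 12 of GCN2 sensing and 6 of 13 T cell markers. For the elongation factors it was 2 of 9 (22.2%), close to the 21.0% of all genes. These counts were made after the values were seen, and what separated the samples numbered 1 from the rest was not tested.

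**Figure D4:**
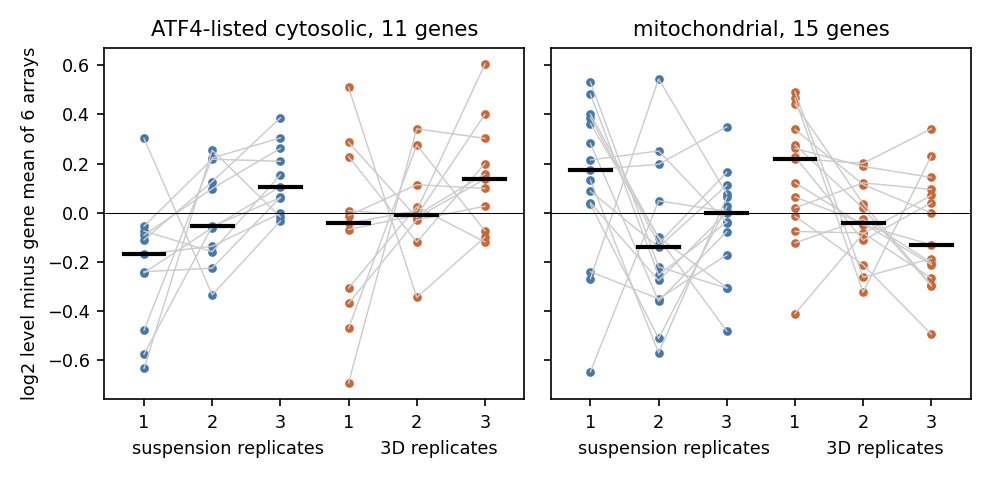
Log2 level of each gene minus its mean over the 6 arrays (y axis) by replicate number in suspension (blue) and 3D (orange), for the 11 ATF4-listed cytosolic synthetases (left) and the 15 mitochondrial synthetases (right); points are genes, grey lines join a gene within a group and black bars are medians. In arrays numbered 1 the median is -0.17 and -0.04 on the left and 0.17 and 0.22 on the right.

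Synthetase genes in sparsely populated regions tended to be those measured higher in 3D. AIMP1, with 3 protein-coding neighbours within 500 kb, had the highest difference, whereas FARSA, with 37, and VARS2, with 33, were on the lower side. Across the 32 genes Spearman's rho with the difference was -0.66 for the number of neighbours and 0.48 for gene span, beside -0.30 and 0.25 over 17684 genes. The points share the same 6 arrays and are not independent. After each array's trend on both measures was removed RARS2 stood at 0.46, AARS2 at -0.49, AIMP1 at 0.47 and NARS2 at 0.32. The part of these measures in the differences was otherwise not tested.

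**Figure D5:**
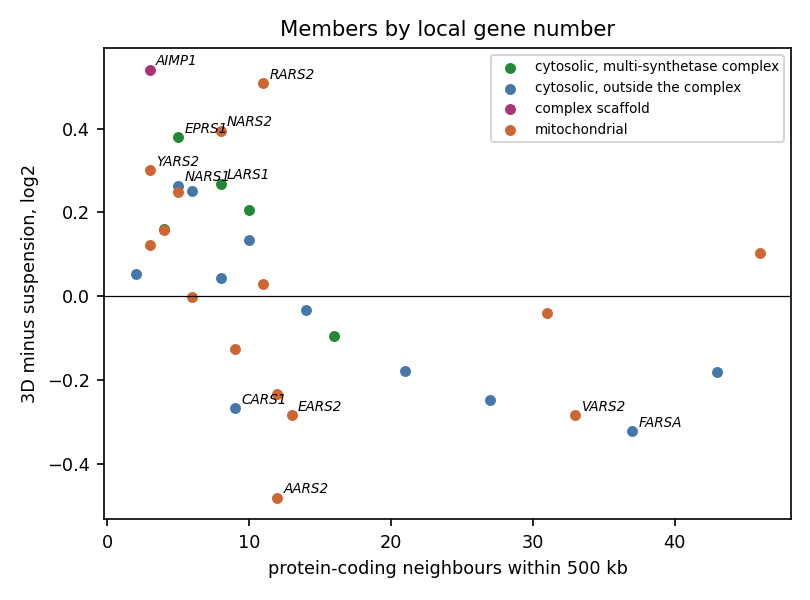
Difference between 3D and suspension on the log2 scale (y axis) against the number of protein-coding genes within 500 kb (x axis) for the 32 genes, coloured by role. AIMP1 (3 neighbours, 0.54) lies at the upper left and FARSA (37 neighbours, -0.32) at the lower right, while HARS2 (46 neighbours, 0.10) lies above 0.

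Several synthetase genes share a start region with a neighbour on the opposite strand. Measured head-to-head partners with starts at most 1000 bases away were found for 9 of the 28 genes, in 8 pairs, as HARS1 and HARS2 are partners of each other. In 5 of the 8 pairs both genes differed in the same direction (62.5%), close to the 65.8% of 853 other head-to-head pairs. TBCK, the neighbour of AIMP1, measured 6.28, 6.81 and 6.75 in suspension and 6.96, 6.87 and 7.17 in 3D. Its groups did not overlap, and the difference was 0.39 ± 0.19 (SE; limma adjusted p = 0.519). HARS1 and HARS2, which encode the cytosolic and mitochondrial histidyl enzymes from starts 85 bases apart, differed by -0.18 ± 0.17 and 0.10 ± 0.19 (SE). These are similar copies, and probe sequences were not used, so signal shared between them is uncertain. FARS2 and LYRM4 differed by 0.12 ± 0.25 and 0.14 ± 0.26 (SE). For SARS2 and MRPS12, a mitochondrial ribosomal protein gene, the values were -0.04 ± 0.16 and -0.04 ± 0.21 (SE). These lay within their SEs, so their likeness in size shows little. By pair FARS2 had 0.04, 0.14 and 0.19, and LYRM4 had 0.26, 0.36 and -0.19. WARS1 and WDR25 (0.04 and -0.27), and KARS1 and TERF2IP (-0.09 and 0.07), differed in opposite directions, as did HARS1 and HARS2.

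Around the synthetases, the steps that make and use charged transfer RNA gave 0 calls at an adjusted p under 0.05 (limma). Among 13 measured genes of other charging routes, editing and formylation, 2 were at an unadjusted p under 0.05, both higher, SEPSECS and SECISBP2. Over all genes 9.87% reached that level, 5.9% of them higher and 3.97% lower as shares of all genes. SEPSECS, the enzyme that finishes selenocysteine on its transfer RNA, measured 6.74, 6.03 and 6.58 in suspension and 7.44, 6.99 and 7.44 in 3D. SECISBP2, which recruits that transfer RNA to selenoprotein messages, measured 7.16, 7.37 and 7.30 against 8.04, 7.82 and 7.95. Neither gene overlapped between groups, with differences of 0.84 ± 0.22 (SE) and 0.66 ± 0.16 (SE) and limma adjusted p-values of 0.359 and 0.347. Other genes of the selenocysteine route did not reach that level, with 0.27 for PSTK, -0.10 for SEPHS1, 0.02 for SEPHS2 and -0.09 for EEFSEC, the last from the elongation factor list; they were named after their values were seen. TARS3, the paralogue of TARS1, differed by 0.07 ± 0.16 (SE).

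Transfer RNA transcription genes numbered 22 measured, with 3 higher and 2 lower at an unadjusted p under 0.05. Over all genes 5.9% were higher and 3.97% lower at that level, and the list is too short to be set apart from these shares. MAF1, the repressor of RNA polymerase III, measured 9.19, 9.07 and 9.36 in suspension and 8.80, 8.60 and 8.62 in 3D, a difference of -0.53 ± 0.16 (SE). GTF3C3 (0.55 ± 0.18), BDP1 (0.43 ± 0.16) and POLR3G (0.42 ± 0.17), parts of the polymerase III machinery, lay on the other side. In the whole list the groups did not overlap for 3 higher and 3 lower genes, against 8.28% and 8.03% of all genes. The 4 genes just named were among them, with limma adjusted p-values of 0.393 to 0.460. The machinery did not differ in 1 direction: GTF3C1, which encodes the largest subunit of TFIIIC and was named after its values were seen, was the second gene lower at that level (-0.43 ± 0.19 SE, limma adjusted p = 0.501). In end processing, splicing and export 1 of 28 genes was higher and 3 were lower at that level, beside the same 5.9% and 3.97% of all genes. TRNT1, which adds the CCA end that synthetases charge, stood at 0.67 ± 0.23 (SE), and POP7, a subunit of RNase P, at -0.58 ± 0.19.

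Downstream, 0 of 9 elongation factors and 0 of 12 genes of amino acid sensing by GCN2 reached an unadjusted p under 0.05. Over all genes 9.87% reached it, and lists of 9 and 12 genes are too short to be set apart from that share. EEF1A1, which carries charged transfer RNA to the ribosome, differed by 0.19 ± 0.20 (SE), and EIF2AK4, which encodes GCN2, by 0.16 ± 0.24. In the blocked fit of genes averaging at least 6, calls at an adjusted p under 0.05 (limma) were 2 higher of 12 genes for other charging routes, 3 higher and 2 lower of 22 for transcription, and 2 higher and 3 lower of 25 for processing. The ATF4 list had 1 higher of 23 in that fit. The shares of all genes in that fit were 10.6% and 3.78%, and the lists hold too few genes to be set apart from them.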

How the data were processed

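The authors deposited log2 expression values per probe set, made with RMA and the Transcriptome Analysis Console per the submitters' processing notes; versions, probe annotation and build are not given in the sources used here. Such values have had background removed, a shared distribution imposed and probes summarised: dim genes show compressed differences, and a change common to all genes would not show. There were 0 further columns of per-sample values.

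The platform table named 17709 of 21448 probe sets with 1 symbol, 0 with several and 3739 with none. The highest-mean probe set was kept for the 20 genes with several, leaving 17687 genes; gene identifiers matched RefSeq (GRCh38.p14) for all 17709. Groups came from sample titles. The fit was limma 3.58.1 in R 4.3.3 (lmFit, eBayes, no block, two-sided) over all genes; p-values were adjusted by Benjamini-Hochberg over the whole table, with 0.05 as the limit. Within-array values were tested with SciPy 1.17.1, and plots drawn with matplotlib 3.10.9. The limma steps were run on simulated data, where recovery was required only for changes larger than any measured here. Recovery at the sizes of the synthetase differences is not given here. Alternatives changed the block, the filter on dim probe sets, normalization, moderation, the probe set rule, the trend on gene span and protein-coding neighbours, and the arrays used.

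The genes and lists were chosen with earlier results of these data known. The rule was full values for the 10 synthetase genes of smallest p and for those called in any fit with the block, and up to 4 genes of each other list are named by smallest p, beside its lead gene. SARS1, FARSA, FARSB, AARS1 and a few genes of other lists were added outside it, after their values were seen. The within-array values, the head-to-head partners and the replicate counts were chosen after the values were seen. A planned comparison of proteins was not run.

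Replicate numbers are shared between groups. After subtracting group means, equal numbers correlated over genes at 0.521, 0.120 and 0.337 for 1, 2 and 3, all over 0.1, so the block is reported as pairs. This pairing is uncertain, since suspension 2 correlated better with 3D 3 (0.230).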

Additional observations from a re-analysis of the deposited data

How the results depend on the processing

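Without the replicate block, 0 synthetase genes and 0 of all genes were called under the 13 alternatives run. Fits with the replicate block called 16 genes of all, 1199 with a mean at or above 6, 22 with the trend on span and neighbours removed, and, with a mean at or above 6 too, 1075 after quantile normalization and 834 with the trend removed. The synthetase genes called numbered 0, 2, 0, 2 and 2 in these. At an unadjusted p under 0.05 the replicate block gave 5, 6 with a mean at or above 6, then 8 after quantile normalization and 5 with the trend removed, and the filter alone gave 1. How many of all genes reached that unadjusted level in these fits is not given here. Of the 8342 genes in the filtered fit with pairs, 14.4% were called even after adjustment. The unadjusted counts therefore do not set the synthetases apart from other genes. Combinations of 3 choices, and the block with the trend, were chosen after seeing the data.

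With arrays or pairs left out, calls ran from 0 to 6 synthetase genes and from 0 to 1457 of all genes. Counts of synthetase genes at an unadjusted p under 0.05 ran from 1 to 8. Counts of those whose groups do not overlap, which fewer arrays raise, ran from 5 to 9. For the unadjusted and overlap counts the shares of all genes with the same arrays left out are not given here. Those counts therefore show nothing particular to the synthetases. The median difference ran from -0.014 to 0.11.

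The sign held under every alternative for 21 of the 32 genes and turned for 11, none of them past the threshold. The block over the whole set of arrays, the filter, the moderation and the probe set rule cannot change a synthetase gene's difference. Only the remaining alternatives could therefore turn a sign. AARS2 and EARS2, which the filter removed, had 17 alternatives where the other genes had 24. Quantile normalization turned TARS1 (-0.0050). Removing the trend turned FARS2 (-0.0050), LARS2 (-0.035), SARS2 (0.044), TARS1 (-0.014) and WARS1 (-0.0039), with and without the replicate block. With arrays or pairs left out, differences ran from -0.28 to 0.31 for AARS1, -0.16 to 0.26 for CARS2, -0.088 to 0.35 for FARS2, -0.051 to 0.27 for HARS2, -0.24 to 0.027 for KARS1, -0.21 to 0.22 for LARS2, -0.30 to 0.082 for MARS2, -0.12 to 0.062 for SARS2, -0.014 to 0.14 for TARS1, -0.20 to 0.23 for WARS1 and -0.36 to 0.012 for YARS1. The cause was not tested. No detection call was used here, which limits what low levels such as those of AARS2 and EARS2 can show.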
